A study of Rattus norvegicus with 294 samples.

Results

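Thrombospondins are secreted matricellular proteins, and Cthrc1 (collagen triple helix repeat containing 1) is a secreted glycoprotein of matrix-producing mesenchymal cells. Of the 4 genes named, Thbs1, Thbs2, Thbs4 and Cthrc1, 3 had a probe set annotated to that gene alone, among 14217 genes that did. Each was measured by 1 probe set, Thbs2 by 1385751_at, Thbs4 by 1388138_at and Cthrc1 by 1384063_at, and Thbs1 was not analysed here. The genes were chosen by name and not by a cut on measured values, although results of these data were known when they were chosen.

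The rats were female Sprague-Dawley rats, ovariectomized at 6 months of age and left untreated for 8 weeks, and every group, vehicle included, shared the ovariectomy and calcein labels of 10 mg/kg given 13 and 3 days before death. They received weekly subcutaneous Scl-Ab, an antibody against the osteocyte protein sclerostin engineered to be less immunogenic in rats, at 50 or 3 mg/kg, or vehicle. Laser capture from frozen sections of the third lumbar vertebra gave 97 arrays of enriched osteoblasts, 100 of lining cells and 97 of osteocytes, on days 8, 29, 85 and 183 of dosing. Further rats were taken after dosing ended at day 183: those from 3 mg/kg on days 197 and 267 and those from 50 mg/kg on days 237 and 309, each day with its own vehicle group. In all, 174 arrays came from antibody rats and 120 from vehicle rats, in 60 groups of 3 to 5 arrays.

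Some limits of the material bear on every value. The labels draw the cell types from the same first 5 animals of a group but name no rat, so cell types share rats and arrays were not paired. From each capture 1.5 ng of RNA was amplified, and in such bulk material fewer cells of a type and less RNA per cell cannot be told apart. Sample numbers in the labels run in 3 separate series (days 8 to 85, day 183, and days 197 to 309), so day and series cannot be told apart, while each antibody group has vehicle of its own day. The osteocyte markers Mepe and Dmp1 had mean log2 values of 11.56 and 11.12 in osteocytes, against 6.11 and 7.46 in osteoblasts and 5.71 and 6.35 in lining cells. Sost and Fgf23 lay above their array's median in only 47 and 2 of the 97 osteocyte arrays. The osteoblast markers Bglap, Col1a1, Col1a2, Alpl and Ibsp together averaged 9.52 in osteoblasts, 8.17 in lining cells and 9.95 in osteocytes. They thus did not set osteoblast captures apart from osteocyte captures. In the same order erythroid markers averaged 9.87, 9.44 and 8.47, and granulocyte markers 9.98, 9.63 and 8.68. Platelet and megakaryocyte markers averaged 8.04, 7.48 and 5.36, and osteoclast markers 8.12, 8.42 and 8.61. The signal range (the 90th minus the 50th percentile of an array's log2 values) stood apart in 3 arrays, which were osteoblast vehicle day 85 replicate 4, lining cell 50 mg/kg day 8 replicate 3 and osteocyte 3 mg/kg day 29 replicate 2 (replicates are numbered in the order of deposit and have no other meaning).

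As a family, thrombospondins bind cell-surface integrins, CD36, CD47, collagens, proteases and calcium, though not every member binds each of these. Thbs1 and Thbs2 form trimers, carry type 1 repeats and are known inhibitors of blood vessel growth, and Thbs1 activates latent TGF-beta. Thbs4 belongs to the pentameric subgroup with Thbs3 and Comp, lacks type 1 repeats and is best known from tendon, muscle and cartilage matrix. In mouse bone, Thbs2 is known to hold back the growth of marrow stromal progenitors, and Cthrc1 is known to promote osteoblastic bone formation and to favour the planar polarity branch of Wnt signalling through receptors such as Ror2.

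The RefSeq table used here (build GRCr8) held promoters for Thbs1, Thbs4, Col5a1, Cdh15 and Cgref1, among others, and none for Thbs2 or Cthrc1. Col5a1, a fibrillar collagen gene, followed both Cthrc1 and Thbs4 across groups, and Cdh15 and Cgref1 followed 1 of them each (given below). The 250 bases before the start are shown for Thbs4 and Col5a1 only, because these 2 genes moved together, with matches to the GC box in capitals.
Thbs4, chr2:25760346-25760595, minus strand: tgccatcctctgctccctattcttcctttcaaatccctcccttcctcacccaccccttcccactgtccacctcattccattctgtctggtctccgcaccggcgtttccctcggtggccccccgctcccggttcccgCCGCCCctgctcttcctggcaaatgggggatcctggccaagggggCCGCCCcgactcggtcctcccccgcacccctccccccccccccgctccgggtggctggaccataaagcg
Col5a1, chr3:31606630-31606879, plus strand: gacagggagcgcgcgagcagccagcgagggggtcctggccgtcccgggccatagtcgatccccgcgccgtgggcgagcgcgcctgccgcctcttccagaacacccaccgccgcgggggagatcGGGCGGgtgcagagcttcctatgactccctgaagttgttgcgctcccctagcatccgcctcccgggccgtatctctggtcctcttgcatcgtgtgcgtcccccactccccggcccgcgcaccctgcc
Thbs4 held 2 matches to the GC box GGGCGG, both on the opposite strand, beginning 114 and 69 bases before the start. Col5a1 held 1, on the strand of the gene, 127 bases before the start. Guanine and cytosine made up 67.6% of the Thbs4 stretch and 71.6% of the Col5a1 stretch, against a median of 51.2% over 33469 promoters. The motifs, searched on both strands and not overlapping here, were found in all promoters at 30.5% (GC box), 3.15% (TCF/LEF, CTTTGAT), 4.59% (Runx, TGTGGTT) and 12.9% (TATA box, TATAAA). In these 2 windows the last 3 strings of letters had no match. The Cgref1 window, not printed, held 1 Runx match on the opposite strand, 207 bases before the start.

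All values below are log2 of the deposited RMA signal, and all differences are log2 fold changes with the 95% interval where one is given. Levels of different probe sets cannot be set against each other, so levels are compared within a gene. Over all arrays Thbs4 averaged 8.43 in osteoblasts, 6.94 in lining cells and 10.37 in osteocytes, and Cthrc1 averaged 7.23, 5.21 and 7.27. Both were above their array's median in every array. Thbs2 was a dim probe set, with means of 3.58, 3.38 and 3.20, and it lay above the array's median in 56 of 97 osteoblast, 69 of 100 lining cell and 79 of 97 osteocyte arrays. Of the related genes, Thbs3 was above the median in 9 of 97, 1 of 100 and 18 of 97 arrays, and Comp in 0 of 97, 0 of 100 and 1 of 97.

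The order of the cell types was read in the 40 vehicle arrays of each. Thbs4 ran from 6.18 to 9.89 (median 8.02) in osteoblasts, from 5.0 to 8.44 (median 6.66) in lining cells and from 8.44 to 11.34 (median 10.28) in osteocytes. Its order was thus osteocyte, osteoblast, lining cell, and lining cells differed from osteocytes by -3.47 (-3.72 to -3.23; limma adjusted p = 1.50e-51). Cthrc1 ran from 4.84 to 9.21 (median 6.62) in osteoblasts, from 3.72 to 6.35 (median 4.70) in lining cells and from 5.54 to 8.77 (median 7.24) in osteocytes. Osteoblasts and osteocytes did not differ in Cthrc1 beyond their spread (-0.22, -0.46 to 0.03, limma adjusted p = 0.0878), and lining cells lay 2.24 below osteocytes (limma adjusted p = 3.83e-34, log2 difference -2.24). Nearly every gene differed between cell types as deposited, 94.8% for osteoblast minus lining cell, 96.9% for osteoblast minus osteocyte and 80.7% for lining cell minus osteocyte, and the medians of all genes were shifted by 0.42, 0.67 and 0.27 in these pairs. After quantile normalization of all arrays together 33.5, 63.8 and 58.5% of genes differed. The Thbs4 differences then were 0.90, -2.72 and -3.61 in the same order of pairs, and the Cthrc1 differences were 1.53, -0.98 (now past the threshold) and -2.51. For Thbs2 no order could be read: the pairs gave 0.21, 0.43 and 0.22 as deposited and -0.11, -0.14 and -0.028 after quantile normalization.

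**Figure D1:**
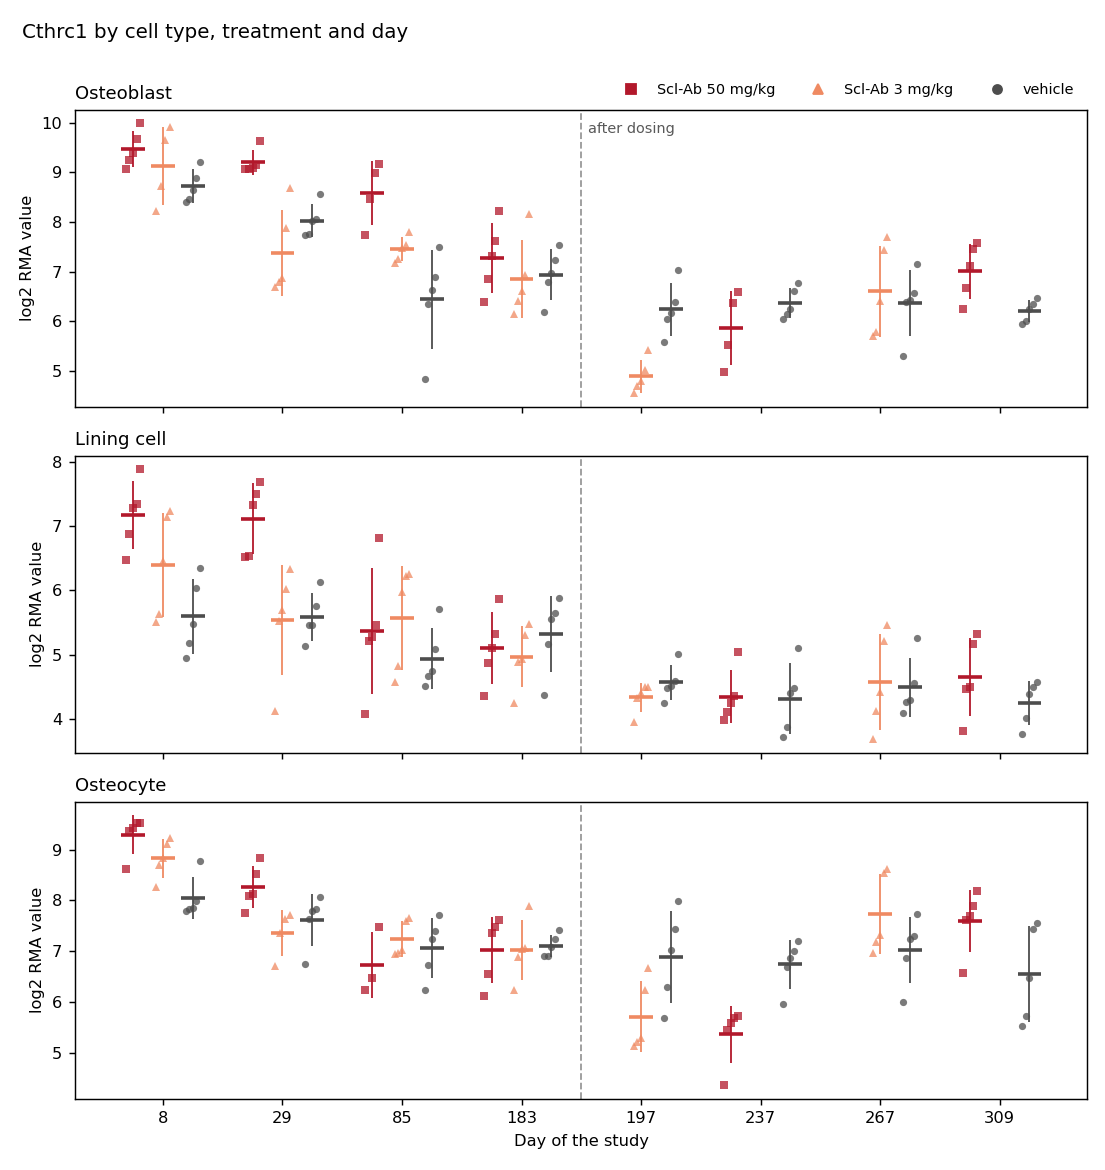
Log2 RMA value of Cthrc1 on each array (vertical axis) by day of the study (horizontal axis, days not to scale) in osteoblasts, lining cells and osteocytes; squares are Scl-Ab 50 mg/kg, triangles Scl-Ab 3 mg/kg and circles vehicle, with the group mean as a bar and 1 SD as a line. Osteoblasts at 50 mg/kg lay above every vehicle array on days 29 and 85, and osteocytes taken from 50 mg/kg lay below every vehicle array on day 237.

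The first question of the design is what weekly antibody changed during dosing. In osteoblasts Cthrc1 and Thbs4 rose at 50 mg/kg on days 29 and 85, in lining cells Cthrc1 rose at 50 mg/kg on days 8 and 29, and Thbs2 did not pass the test in any cell type, at either dose, on any dosing day. On day 85, Cthrc1 in osteoblasts was 7.73, 8.47, 8.98 and 9.17 at 50 mg/kg, against 7.18, 7.26, 7.48, 7.54 and 7.80 at 3 mg/kg, and 4.84, 6.35, 6.63, 6.90 and 7.50 in vehicle. The 50 mg/kg arrays were all above the vehicle arrays, and the 3 mg/kg arrays overlapped the highest vehicle array. Thbs4 there was 9.86, 10.14, 10.41 and 10.79 at 50 mg/kg, against 8.49, 8.98, 9.0, 9.23 and 9.65 at 3 mg/kg, and 7.61, 7.64, 8.11, 8.27 and 9.12 in vehicle, with the same pattern of overlap. At 50 mg/kg the rise of Cthrc1 was 2.14 (1.39 to 2.89, limma adjusted p = 0.000173), a fold of 4.41 that was the sixth in size. For Thbs4 it was 2.15 (1.36 to 2.93, limma adjusted p = 0.000291), a fold of 4.44. In this comparison 4.47% of 11412 genes were called, 3.38% as higher, and 4.92% had higher groups that did not overlap. At 3 mg/kg Cthrc1 gave 1.01 (0.30 to 1.72, limma adjusted p = 0.316) and Thbs4 0.92 (0.18 to 1.66, limma adjusted p = 0.392), each above the vehicle mean in 5 of 5 arrays, where 0.0876% of all genes passed.

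The lowest of these vehicle values for Cthrc1 came from replicate 4, the array whose signal range stood apart. Without it Cthrc1 at 50 mg/kg was 1.74 (limma adjusted p = 0.00310) and Thbs4 2.02 (0.00182). With the 2 doses averaged, the rises of 1.57 and 1.53 on this day (1.76% of genes called, 1.26% as higher) became 1.17 (limma adjusted p = 0.049996, just under the threshold) and 1.41 (0.0350) without that array. Array weights ended both averaged calls, at limma adjusted p = 0.0595 for Cthrc1 and 0.0762 for Thbs4, and left both calls at 50 mg/kg in place. The signal range ran from 3.11 to 3.28 at 50 mg/kg and from 2.95 to 3.07 in vehicle on this day, without overlap. With it as a covariate Cthrc1 was 2.04 (limma adjusted p = 0.000549) and Thbs4 2.05 (0.000959).

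**Figure D2:**
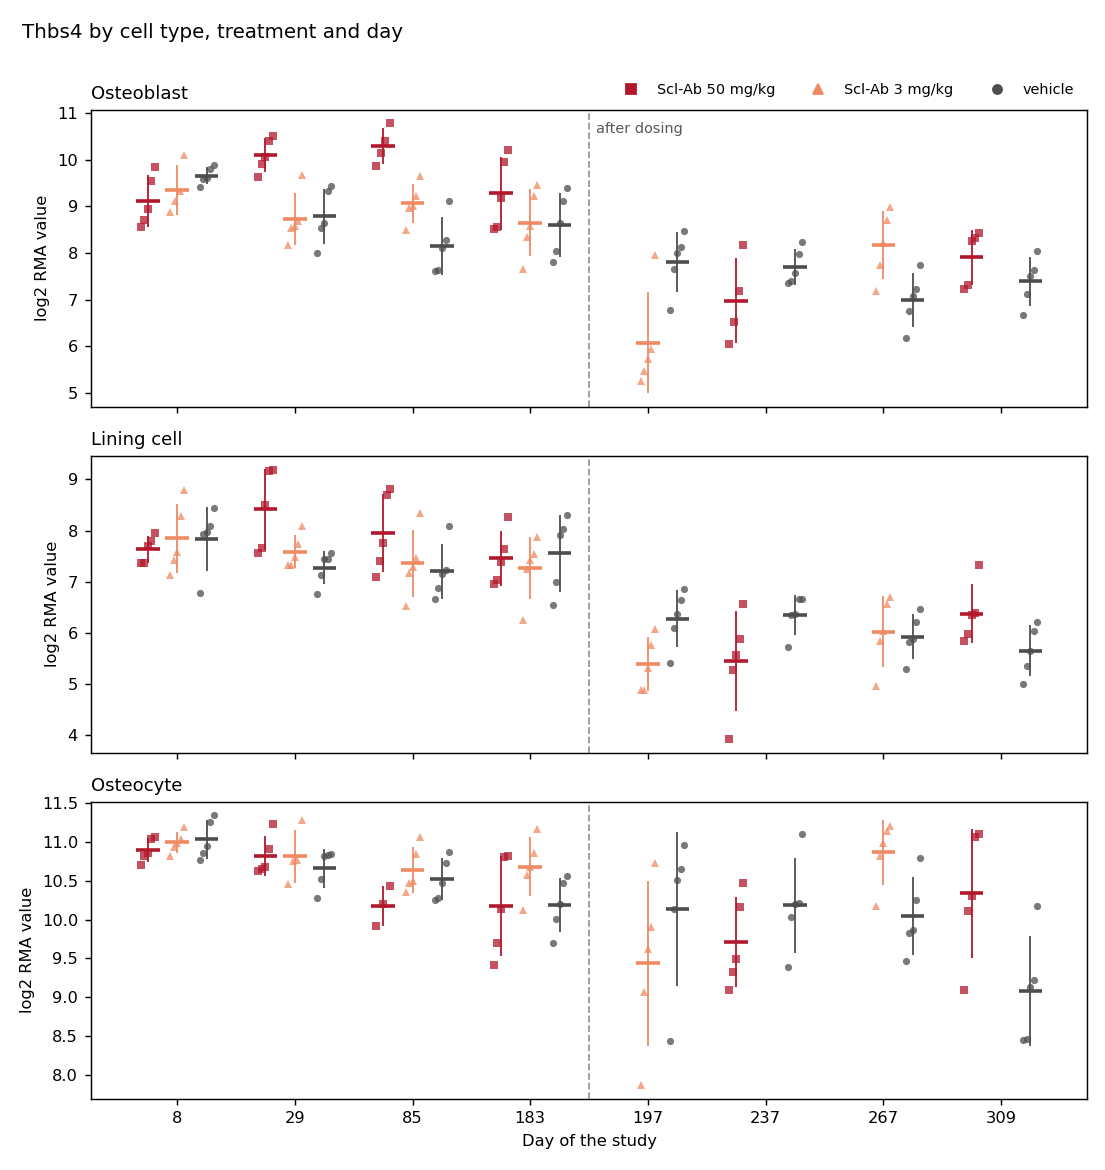
Log2 RMA value of Thbs4 on each array (vertical axis) by day of the study (horizontal axis, days not to scale), drawn for the 3 cell types with squares for Scl-Ab 50 mg/kg, triangles for Scl-Ab 3 mg/kg and circles for vehicle; bars are group means and lines 1 SD. Osteoblasts at 50 mg/kg lay above every vehicle array on days 29 and 85, while osteocytes stayed between 9.91 and 11.06 in all groups on day 85.

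On day 29, Cthrc1 in osteoblasts was 9.07, 9.07, 9.08, 9.15 and 9.63 at 50 mg/kg, against 6.69, 6.78, 6.87, 7.87 and 8.67 at 3 mg/kg, and 7.74, 7.76, 8.02, 8.07 and 8.56 in vehicle. Thbs4 was 9.63, 9.92, 10.06, 10.41 and 10.52 at 50 mg/kg, against 8.17, 8.53, 8.57, 8.70 and 9.68 at 3 mg/kg, and 8.01, 8.54, 8.64, 9.34 and 9.43 in vehicle. For both genes the 50 mg/kg arrays lay above all vehicle arrays, and the 3 mg/kg arrays spread over and below the vehicle range for Cthrc1 and over it for Thbs4. The rise at 50 mg/kg was 1.17 for Cthrc1 (0.46 to 1.88, limma adjusted p = 0.0104) and 1.32 for Thbs4 (0.58 to 2.06, limma adjusted p = 0.00553). Here 28.4% of all genes were called, 7.76% as higher, and 5.64% had higher groups that did not overlap. The signal range on this day ran from 2.96 to 3.34 at 50 mg/kg and from 3.43 to 3.65 in vehicle, again without overlap but lower in the treated arrays. With it as a covariate Cthrc1 was 1.38 (limma adjusted p = 0.0249) and Thbs4 1.53 (0.0161). These 4 osteoblast calls at 50 mg/kg held in each of 104 alternative settings. Of the settings 97 left out 1 array, and an array outside the groups compared could not change the difference itself. The mean of probe sets could not change it either, since each member has 1 probe set. The same limits apply to the counts of settings below. Thbs2 at 50 mg/kg on day 29 passed with array weights (0.29, limma adjusted p = 0.0464), and Cthrc1 at 50 mg/kg on day 8 passed when only its own groups were fitted (0.75, limma adjusted p = 0.0281).

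In lining cells on day 8 Cthrc1 was 6.47, 6.88, 7.29, 7.34 and 7.88 at 50 mg/kg, against 5.52, 5.63, 6.46, 7.14 and 7.23 at 3 mg/kg, and 4.95, 5.18, 5.47, 6.04 and 6.35 in vehicle. On day 29 it was 6.51, 6.54, 7.33, 7.50 and 7.69 at 50 mg/kg, against 4.12, 5.53, 5.69, 6.02 and 6.34 at 3 mg/kg, and 5.13, 5.46, 5.46, 5.76 and 6.14 in vehicle. On both days the 50 mg/kg arrays lay wholly above vehicle, as in 1.09% of genes on day 8 and 0.474% on day 29. The rise on day 8 was 1.58 (0.86 to 2.29, limma adjusted p = 0.0155), the third largest of 11600 genes, where 0.621% of genes were called, 0.172% as higher. On day 29 it was 1.53 (0.81 to 2.24, limma adjusted p = 0.0260), where 0.207% were called, 0.198% as higher. Averaged over the doses no lining cell comparison passed (0 of 12 by limma, 4 of 12 at an unadjusted p under 0.05), and the day 8 Cthrc1 value was 1.19 (limma adjusted p = 0.0651). That value passed with array weights (0.0119), after quantile normalization (0.0404) and with the signal range as a covariate (0.0277). Few genes of any kind passed there: 0.31, 0.0431, 0.0776 and 0.0517% on days 8, 29, 85 and 183.

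These lining cell calls rested on few arrays. The day 8 call ended when only its own groups were fitted (limma adjusted p = 0.102) and without vehicle replicate 2, 3 or 4 (0.0668, 0.0597 and 0.0526). The day 29 call ended without vehicle replicate 1, 2 or 5 (0.0931, 0.0752 and 0.0926) or without 50 mg/kg replicate 2, 4 or 5 (0.178, 0.117 and 0.132). Thbs4 in lining cells at 50 mg/kg on day 29 was 7.56, 7.66, 8.50, 9.16 and 9.19, against 6.77, 7.14, 7.44, 7.45 and 7.57 in vehicle, and this difference of 1.14 did not pass (limma adjusted p = 0.339).

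In osteocytes no member passed during dosing (0 of 24 comparisons by dose by limma, 2 of 24 at an unadjusted p under 0.05). On days 8, 29, 85 and 183, 110 (0.928%), 771, 1203 and 757 of 11859 genes were called at 50 mg/kg. At 3 mg/kg 1, 0, 173 and 0 were called on these days. Cthrc1 on day 8 was 8.62, 9.37, 9.43, 9.51 and 9.53 at 50 mg/kg, against 8.26, 8.69, 8.83, 9.11 and 9.23 at 3 mg/kg, and 7.79, 7.83, 7.86, 7.98 and 8.77 in vehicle. A single vehicle array overlapped the treated arrays. The 50 mg/kg difference of 1.25 (0.54 to 1.96) had a limma adjusted p of 0.0636. It passed with array weights (0.00869), when only its own groups were fitted (0.00473) and after quantile normalization (0.0436).

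On day 183, the last day of dosing, no member passed in any cell type with the doses averaged or apart, where the averaged comparison called 3.29% of genes in osteoblasts and 2.06% in osteocytes. In osteoblasts Cthrc1 was 6.38, 6.84, 7.31, 7.61 and 8.22 at 50 mg/kg, against 6.15, 6.41, 6.60, 6.94 and 8.15 at 3 mg/kg, and 6.19, 6.78, 6.97, 7.23 and 7.54 in vehicle, and all groups overlapped. The difference averaged over doses was 0.12 (-0.49 to 0.74) for Cthrc1 and 0.37 (-0.27 to 1.01) for Thbs4. The osteoblast response on day 183 less that on day 85 was -1.45 for Cthrc1 (limma adjusted p = 0.151) and -1.17 for Thbs4 (limma adjusted p = 0.306), neither past the threshold (0.21% of genes called). After quantile normalization the Cthrc1 difference passed (-1.62, limma adjusted p = 0.0438). The response on day 85 less that on day 8 passed for Thbs4 (1.96, 1.03 to 2.88, limma adjusted p = 0.0230, 0.657% of genes called) and did not for Cthrc1 (1.0, limma adjusted p = 0.288). Part of the Thbs4 difference comes from its day 8 response, which was -0.42. The Thbs4 call ended with array weights (limma adjusted p = 0.0891), without vehicle day 85 replicate 4 (0.0672) or 3 (0.0522) and without 3 mg/kg day 8 replicate 4 (0.0512).

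**Figure D3:**
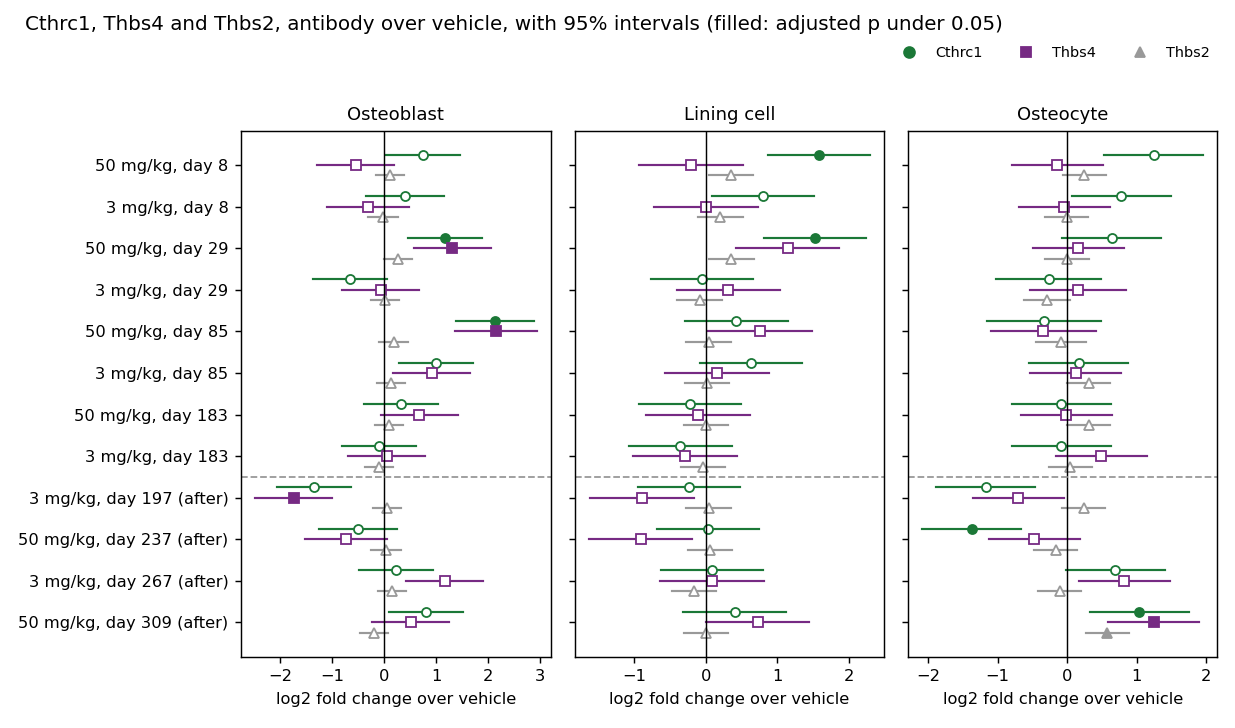
Log2 fold change over vehicle of the same day (horizontal axes) for Cthrc1, Thbs4 and Thbs2 at each dose and day (vertical axis) in the 3 cell types, with 95% intervals; filled points passed the test across all genes. Filled points lie right of 0 in osteoblasts and lining cells during dosing, and on both sides of 0 in the days after dosing.

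The doses were then compared directly, with the osteoblast values of days 29 and 85, and of Cthrc1 on day 183, as given above. On day 8 Cthrc1 averaged 9.47 at 50 mg/kg, 9.13 at 3 mg/kg and 8.72 in vehicle in osteoblasts. Thbs4 averaged 9.12, 9.35 and 9.66 there, lowest at 50 mg/kg. On day 183 the Thbs4 means were 9.28, 8.65 and 8.60 in the same order. Over the 4 dosing days in osteoblasts, 50 mg/kg exceeded 3 mg/kg by 0.93 for Cthrc1 (0.56 to 1.30, limma adjusted p = 0.000752) and by 0.75 for Thbs4 (0.37 to 1.13, limma adjusted p = 0.0139), where 2.53% of genes were called. On day 29 the dose difference was 1.82 for Cthrc1 (limma adjusted p = 0.000845) and 1.38 for Thbs4 (limma adjusted p = 0.0216), with 4.17% called. The Thbs4 difference on day 29 ended without 3 mg/kg replicate 1 or 4 (0.0570 and 0.104) or 50 mg/kg replicate 4 or 5 (0.0565 and 0.0668). On day 85 the dose differences of 1.13 and 1.23 did not pass (limma adjusted p = 0.134 and 0.109; 1.27% called), and both passed when only their own groups were fitted (0.0282 and 0.0106). In lining cells Cthrc1 differed between doses on day 29 by 1.58 (limma adjusted p = 0.0320, 0.103% called). That call ended when only its own groups were fitted (0.486), without 3 mg/kg replicate 1 or 2 (0.0595 and 0.541) and without 50 mg/kg replicate 2, 4 or 5 (0.199, 0.136 and 0.178). In osteocytes none of 15 dose comparisons passed by limma, 2 of them at an unadjusted p under 0.05 (15% of genes called over the dosing days). On days 8, 29, 85 and 183 apart, 5, 752, 836 and 332 of 11859 genes were called between the doses.

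Whether the day 85 response differed between cell types was tested in a fit of all arrays. The osteoblast response exceeded the osteocyte response by 1.66 for Cthrc1 (0.73 to 2.58, limma adjusted p = 0.0346) and by 1.64 for Thbs4 (0.72 to 2.56, limma adjusted p = 0.0350), in a comparison that called 2.02% of 12507 genes. Array weights ended both (limma adjusted p = 0.477 and 0.442), as did leaving out the 3 arrays of outlying signal range (0.164 and 0.0726). Against lining cells the differences of 1.04 and 1.08 did not pass (limma adjusted p = 0.447 and 0.430; 0.168% called).

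Other cell markers moved with some of these groups. The 5 osteoblast markers measured (Bglap, Col1a1, Col1a2, Alpl and Ibsp) averaged 10.29 at 50 mg/kg (9.95 to 10.56 over arrays), 9.71 at 3 mg/kg (9.50 to 9.94) and 9.05 in vehicle (8.02 to 9.80) in osteoblasts on day 85. On day 29 they averaged 10.75 (10.61 to 10.91), 9.90 (9.60 to 10.52) and 9.92 (9.41 to 10.34) in the same order. In lining cells they averaged 9.72 (9.35 to 9.95), 9.52 (8.75 to 9.96) and 8.93 (8.50 to 9.28) on day 8, and 9.66 (9.10 to 10.11), 8.79 (8.30 to 9.11) and 8.38 (8.08 to 8.73) on day 29. These markers were thus highest at 50 mg/kg on each of these days. The 7 platelet and megakaryocyte markers averaged 8.77 (8.66 to 8.99) at 50 mg/kg, against 7.86 (7.53 to 8.11) at 3 mg/kg and 7.90 (7.53 to 8.26) in vehicle in osteoblasts on day 85. The 4 osteoclast markers averaged 7.42 (7.05 to 8.07), 8.31 (8.10 to 8.53) and 8.13 (7.67 to 8.49) there. The part of these markers in the results was not tested. The 3 tendon markers averaged 3.52, 3.75 and 3.62 in osteoblasts on that day. Of these markers, Tnmd lay above the array's median in 5 of 97 osteoblast arrays, Fmod in 16 and Scx in 96. In osteocytes Tnmd did so in 6 of 97 arrays, Fmod in 22 and Scx in 97.

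The second question is what followed the end of dosing. Early after dosing Thbs4 fell in osteoblasts from 3 mg/kg on day 197, and Cthrc1 fell in osteocytes from 50 mg/kg on day 237. Late after 50 mg/kg, on day 309, Cthrc1, Thbs4 and Thbs2 were higher in osteocytes than in vehicle of that day, whose means were low (given below). No member passed in lining cells (0 of 12 by limma; 2 of 12 at an unadjusted p under 0.05, Thbs4 at -0.89 on day 197 and at -0.91 on day 237). Of all genes 0.0603, 1.45, 1.08 and 0.405% were called there on days 197, 237, 267 and 309.

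In osteoblasts on day 197, Thbs4 was 5.26, 5.48, 5.73, 5.95 and 7.95 in rats from 3 mg/kg, against 6.77, 7.67, 8.0, 8.12 and 8.48 in vehicle. In this group 4 of 5 arrays lay below all vehicle arrays and 1 lay within them. The difference was -1.73 (-2.47 to -1.0, limma adjusted p = 0.0180) where 0.0789% of genes were called, 0.0701% as lower. The call ended when only its own groups were fitted (0.186), without vehicle replicate 1, 2 or 3 (0.0879, 0.134 and 0.0755) and without 3 mg/kg replicate 1, 2, 3 or 4 (0.0756, 0.0652, 0.174 and 0.174). Cthrc1 on that day was 4.55, 4.70, 4.80, 5.02 and 5.42 in rats from 3 mg/kg, against 5.58, 6.05, 6.16, 6.38 and 7.03 in vehicle. These groups did not overlap, as in 0.701% of genes that were lower, and the difference of -1.34 (-2.05 to -0.63) had a limma adjusted p of 0.274. It passed with array weights (0.0128) and when only its own groups were fitted (0.0135). The osteoblast markers averaged 7.56 (6.69 to 8.40) in rats from 3 mg/kg and 9.21 (8.65 to 9.53) in vehicle on that day, and their part in the result was not tested.

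By day 267 the osteoblast values of Thbs4 had changed sides. Thbs4 was 7.20, 7.74, 8.22, 8.71 and 8.99 in rats from 3 mg/kg, against 6.18, 6.75, 7.09, 7.22 and 7.75 in vehicle, a difference of 1.17 that did not pass (limma adjusted p = 0.998; no gene passed there, 0% of 11412). The test of the later response minus the earlier one, added after these values were seen, gave 2.91 for Thbs4 (1.86 to 3.95, limma adjusted p = 0.000931), where 0.0613% of genes were called. It held in each of 103 alternative settings. The same difference for Cthrc1 was 1.58 (limma adjusted p = 0.686).

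After 50 mg/kg no member passed in osteoblasts, so that the Thbs4 fall of day 197 was the 1 call among 12 osteoblast comparisons after dosing, with 4 of 12 at an unadjusted p under 0.05. On day 237 Cthrc1 was 4.99, 5.53, 6.36 and 6.59 in rats from 50 mg/kg, against 6.06, 6.16, 6.24, 6.61 and 6.76 in vehicle. Thbs4 was 6.05, 6.53, 7.18 and 8.17 in rats from 50 mg/kg, against 7.35, 7.40, 7.58, 7.98 and 8.23 in vehicle. The treated arrays leaned low for both genes and overlapped vehicle (10.7% of genes called). On day 309 Cthrc1 was 6.25, 6.67, 7.11, 7.45 and 7.58 in rats from 50 mg/kg, against 5.95, 6.01, 6.26, 6.36 and 6.47 in vehicle. All 5 treated arrays were above the vehicle mean, and the difference of 0.80 (0.09 to 1.51) had a limma adjusted p of 0.130 (10.5% of genes called). Thbs4 was 7.22, 7.32, 8.26, 8.32 and 8.44 in rats from 50 mg/kg, against 6.68, 7.11, 7.51, 7.63 and 8.04 in vehicle, with overlap. The later response less the earlier one was 1.30 for Cthrc1 (limma adjusted p = 0.0537) and 1.25 for Thbs4 (limma adjusted p = 0.0781), where 25.9% of genes were called. The Cthrc1 value passed with array weights (0.0444) and without the arrays of outlying signal range (0.0403), and with the signal range as a covariate it was 1.0 (limma adjusted p = 0.341). The signal range averaged 3.22 in rats from 50 mg/kg and 3.44 in vehicle on day 237, and 3.41 and 3.08 on day 309.

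In osteocytes on day 237, Cthrc1 was 4.37, 5.45, 5.60, 5.69 and 5.72 in rats from 50 mg/kg, against 5.95, 6.70, 6.86, 7.01 and 7.19 in vehicle. The groups did not overlap, as in 2.9% of genes that were lower. The fall was -1.38 (-2.09 to -0.66, limma adjusted p = 0.00447), in a comparison that called 13.2% of 11859 genes, 6.16% as lower, and with array weights it was -1.17 (limma adjusted p = 0.0535). Thbs4 was 9.09, 9.33, 9.49, 10.16 and 10.47 in rats from 50 mg/kg, against 9.39, 10.03, 10.20, 10.21 and 11.10 in vehicle, with wide overlap. Here the osteoblast markers averaged 8.86 (8.53 to 9.09) in rats from 50 mg/kg and 10.04 (9.81 to 10.17) in vehicle. The 6 osteocyte markers averaged 6.74 (6.64 to 6.83) against 5.48 (4.78 to 6.07), and the 9 endothelial markers 4.77 (4.45 to 5.25) against 4.01 (3.71 to 4.25). Their part in the Cthrc1 result was not tested.

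On day 309 the osteocyte values stood the other way. Cthrc1 was 6.58, 7.61, 7.69, 7.88 and 8.19 in rats from 50 mg/kg, against 5.54, 5.73, 6.47, 7.44 and 7.56 in vehicle. Thbs4 was 9.09, 10.11, 10.30, 11.07 and 11.10 in rats from 50 mg/kg, against 8.45, 8.46, 9.13, 9.23 and 10.17 in vehicle. Each of these pairs of groups overlapped, with all 5 treated arrays at or above the vehicle mean. Thbs2 was 3.16, 3.35, 3.37, 3.51 and 3.79 in rats from 50 mg/kg, against 2.72, 2.84, 2.87, 2.87 and 3.0 in vehicle, and these groups did not overlap (2.77% of genes in that direction). The Thbs2 probe set lay above its array's median in 5 of 5 arrays from 50 mg/kg and in 1 of 5 vehicle arrays, so most of its vehicle values were low on their arrays. The 2 later Thbs2 differences that use this day (given below) rest on the same arrays. The differences were 1.04 for Cthrc1 (0.33 to 1.75, limma adjusted p = 0.0343), 1.25 for Thbs4 (0.59 to 1.90, limma adjusted p = 0.00466) and 0.58 for Thbs2 (0.27 to 0.89, limma adjusted p = 0.00604). In this comparison 16.4% of genes were called, 5.36% as higher. Vehicle means of day 309 were the lowest of the 8 vehicle days, at 6.55 for Cthrc1, 9.09 for Thbs4 and 2.86 for Thbs2. On the other days they ran from 6.74 to 8.04, 10.04 to 11.04 and 2.92 to 3.36 in the same order. The means in rats from 50 mg/kg were 7.59, 10.34 and 3.44, of which only the last lay above those ranges. The later Cthrc1 and Thbs4 differences that use this day rest on these vehicle arrays too.

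The Cthrc1 call on day 309 ended when only its own groups were fitted (0.103), without vehicle replicate 1, 3 or 4 (0.142, 0.0593 and 0.145) and without 50 mg/kg replicate 1, 2, 4 or 5 (0.106, 0.0641, 0.0579 and 0.0979). The Thbs4 call ended when only its own groups were fitted (0.0539), and the Thbs2 call held in each of 104 settings. Several marker lists moved with this group. The osteoblast markers averaged 10.42 (9.93 to 10.63) in rats from 50 mg/kg and 9.54 (9.01 to 10.06) in vehicle, and the osteocyte markers 6.10 (5.37 to 6.45) and 5.12 (4.61 to 5.81). The 8 skeletal muscle markers averaged 3.28 (2.63 to 4.54) and 2.48 (2.43 to 2.51), and the 3 tendon markers 3.82 (3.64 to 4.19) and 3.30 (3.12 to 3.43). The 7 erythroid markers averaged 8.54 (7.97 to 9.61) and 9.48 (9.27 to 9.84). The part of these lists in the 3 differences was not tested.

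The change between the days after dosing was also tested in osteocytes, again with contrasts added after the values were seen. After 50 mg/kg the response on day 309 less that on day 237 was 2.42 for Cthrc1 (1.41 to 3.43, limma adjusted p = 0.00278), 1.72 for Thbs4 (0.80 to 2.65, limma adjusted p = 0.0268) and 0.74 for Thbs2 (0.30 to 1.19, limma adjusted p = 0.0472), where 2.81% of genes were called. On day 197 osteocyte Cthrc1 was 5.13, 5.22, 5.30, 6.24 and 6.67 in rats from 3 mg/kg, against 5.69, 6.30, 7.02, 7.43 and 7.98 in vehicle, a difference of -1.17 (limma adjusted p = 0.0836; 0.00796 with array weights). On day 267 it was 6.97, 7.18, 7.32, 8.53 and 8.62 in rats from 3 mg/kg, against 6.01, 6.86, 7.24, 7.31 and 7.73 in vehicle. Thbs4 was 7.87, 9.07, 9.63, 9.90 and 10.72 in rats from 3 mg/kg on day 197, against 8.44, 10.13, 10.51, 10.65 and 10.95 in vehicle. The treated arrays leaned low on day 197 and high on day 267 for Cthrc1, with overlap on both days. On day 267 Thbs4 was 10.18, 10.81, 10.99, 11.13 and 11.21 in rats from 3 mg/kg, against 9.47, 9.83, 9.87, 10.25 and 10.80 in vehicle, and the groups overlapped on both days. After 3 mg/kg the response on day 267 less that on day 197 was 1.87 for Cthrc1 (0.86 to 2.88, limma adjusted p = 0.00924) and 1.52 for Thbs4 (0.60 to 2.45, limma adjusted p = 0.0224), where 10.9% were called. In the day 309 comparison the Thbs2 response of osteoblasts minus that of osteocytes was -0.78 (limma adjusted p = 0.00229), where 27.3% of 12507 genes were called. The Cthrc1 call after 50 mg/kg held in each of 103 settings, and the other 4 osteocyte calls between days ended in some of them (given in the closing section).

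**Figure D4:**
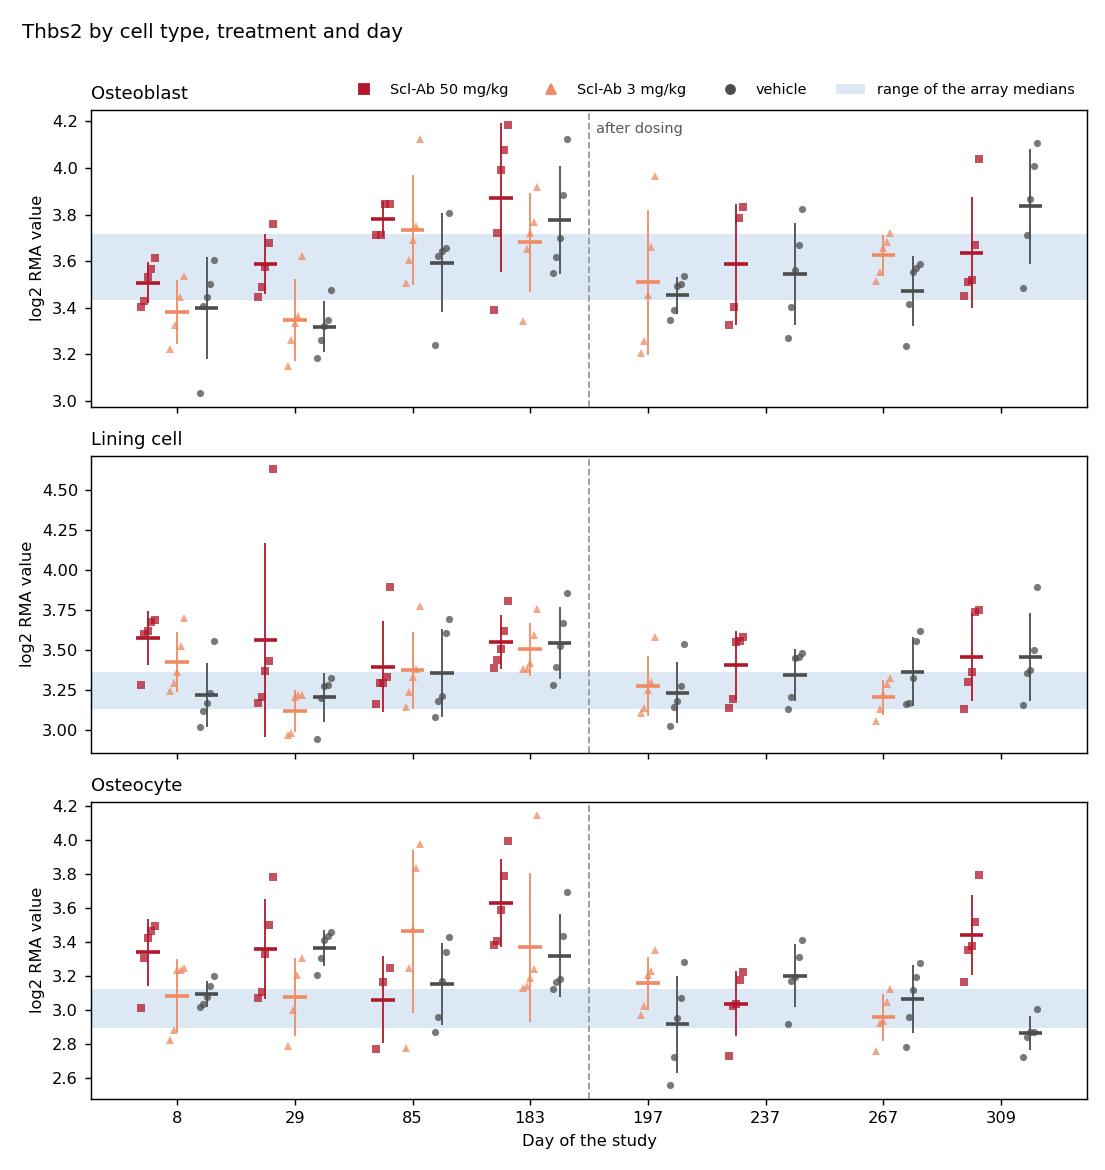
Log2 RMA value of Thbs2 on each array (vertical axis) by day of the study (horizontal axis, days not to scale) in the 3 cell types, with squares for Scl-Ab 50 mg/kg, triangles for Scl-Ab 3 mg/kg, circles for vehicle, bars for group means, lines for 1 SD and a band for the range of the arrays' medians. Most points lie in or near the band, and the osteocyte groups of day 309 are apart from each other.

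The levels in vehicle rats were not level over the study. From day 8 through day 309 (8, 29, 85, 183, 197, 237, 267, 309) the osteoblast vehicle means of Cthrc1 were 8.72, 8.03, 6.45, 6.94, 6.24, 6.37, 6.37 and 6.21. Those of Thbs4 were 9.66, 8.79, 8.15, 8.60, 7.81, 7.71, 7.0 and 7.39. Both were highest on day 8, and day 85 fell below day 8 by a log2 difference of -2.28 for Cthrc1 (limma adjusted p = 1.19e-06) and -1.51 for Thbs4 (limma adjusted p = 0.000924), where 40.6% of genes were called, 25.9% as lower. In osteocytes the Cthrc1 difference was -0.98 (limma adjusted p = 0.0270, 35.8% called), which quantile normalization (-0.60, limma adjusted p = 0.229), array weights (0.125), the signal range as a covariate (0.336) and leaving out vehicle day 8 replicate 5 (0.0839) or day 85 replicate 3 or 5 (0.0580 and 0.107) ended. In lining cells no member passed between these days (0 of 3 by limma and 0 of 3 at an unadjusted p under 0.05; 3.84% called). Over all 8 days the vehicle means differed for Cthrc1 and Thbs4 in every cell type (limma F test, adjusted p between 3.85e-11 and 0.00377), and for Thbs2 in osteoblasts (0.00317) and osteocytes (0.0321) but not in lining cells (0.374), as did 82.2% of genes in osteoblasts, 59.9% in lining cells and 68.6% in osteocytes. Osteoblasts at 50 mg/kg on day 85, with mean Cthrc1 of 8.59, stood near the 8.72 of vehicle on day 8, although these values come from different rats and days and were not tested against each other.

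**Figure D5:**
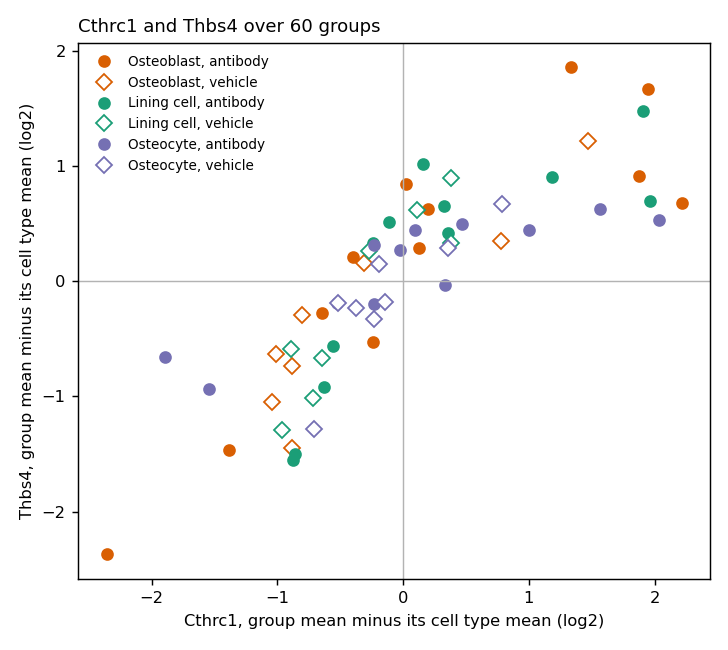
Group mean of Cthrc1 (horizontal axis) against that of Thbs4 (vertical axis) in 60 groups, each minus the mean of its cell type, in log2 units; filled circles are antibody groups and open diamonds vehicle groups, coloured by cell type. The points run from low values of both genes to high values of both.

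Cthrc1 and Thbs4 followed each other across groups. Over the 60 group means, each centred on its cell type, Pearson's r between them was 0.83, with Thbs4 at rank 41 among 11126 other genes for likeness to Cthrc1. For Thbs2 it was 0.09 with Cthrc1 and 0.17 with Thbs4. These are descriptions, since the groups share arrays' normalization, cell types of the same rats and the days. The genes most like Cthrc1 were Col5a1 (a fibrillar collagen chain, r = 0.96), Cgref1 (0.96), Smpd3 (a neutral sphingomyelinase, 0.95), Col22a1 (a junctional collagen, 0.94) and Tmem119 (0.94). Those most like Thbs4 were Cdh15 (muscle cadherin, 0.88), Mmp2 (gelatinase, 0.85), Col5a1 (0.85), Rtn4rl1 (0.83) and Gpc1 (a glypican, 0.83). Those most like the dim Thbs2 were Pinlyp (0.77), Kcnd3, Cntfr, Pcsk4 and Akap3 (each 0.75). In osteoblasts on day 85, with the doses averaged, the difference from vehicle was 1.21 for Col5a1, 1.20 for Cgref1, 0.98 for Tmem119, 0.96 for Smpd3, 0.80 for Mmp2 and 0.61 for Cdh15. These values carry no test, since the genes were picked for their likeness over groups that include these arrays.

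The known partners of these proteins were counted as lists, beside the median of all genes tested. In osteoblasts on day 85, none of 15 thrombospondin receptors and partners passed (median 0.23, all genes 0.03), none of 15 type 1 repeat proteins did (median 0.01) and none of 10 latent TGF-beta activation genes did (median 0.26). Of 10 Cthrc1 partners and planar polarity genes 1 rose, Daam1, a formin of that pathway (0.75, median of the list 0.20, with 1.76% of all genes called). On day 29 the receptor list held 2 higher members, Mmp2 (0.79) and Tgfb1 (0.40), and 1 lower, the thrombospondin receptor Cd47 (-0.35), with a list median of 0.08 and -0.05 for all genes, of which 15% were called. In osteoblasts on day 8, 2 of these 15 fell, Sdc1 (-0.76) and the integrin chain Itgav (-0.86), with 3.64% of all genes called. On day 183, 3 of the 15 rose, the integrin chain Itgb3 (0.83), Mmp9 (0.59) and Cd47 (0.46), with 3.29% of all genes called. Of the 10 latent TGF-beta activation genes 1 fell on day 8, Ltbp2 (-0.72), 2 rose on day 29, Tgfb3 (0.43) and Smad7 (0.38), and 1 fell then, Tgfbr1 (-0.46). Of the type 1 repeat proteins Spon1 fell on day 29 (-0.58). After 50 mg/kg, 3 receptors and partners were higher on day 237, Itgb3 (0.73), Tgfb1 (0.61) and Calr (0.39), and 2 were lower, Sirpa (-0.57) and Itgb1 (-0.66). On that day 10.7% of all genes were called, and Dvl3 of the planar polarity list was higher too (0.46). On day 309 Itgav (0.67) and Itgb1 (0.66) were higher, as was Tgfbr1 (0.67) of the latent TGF-beta list, of which Ltbp2 was higher on day 237 (0.58). Daam1 (0.90), Rac1 (0.71), Rhoa (0.69) and Spon1 (0.73) were also higher on day 309, with 10.5% of genes called. Between the doses over the dosing days, Mmp2 (0.57) and Rac1 (0.39) were higher at 50 mg/kg, and Spon1 (-0.43) and Ltbp2 (-0.34) lower, with 2.53% called. In lining cells Rac1 was higher at 50 than at 3 mg/kg (0.38, 75 of 11600 genes called), and Ltbp2 was lower on day 267 after 3 mg/kg (-0.70, 1.08% called).

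The same lists were counted in osteocytes, and the cell types were not tested against each other. Of 11 latent TGF-beta activation genes 2 rose on day 29, Tgfb3 (1.10) and Ltbp1 (0.83), and 2 on day 183, Tgfb2 (1.0) and Ltbp1 (0.62). Of all genes 25 of 11859 were called on day 29 and 2.06% on day 183. On day 85, 2 of 11 rose, the latent TGF-beta binding proteins Ltbp1 (1.19) and Ltbp4 (0.60), and none fell (list median 0.21, all genes 0.03, 6.3% called). Of the type 1 repeat proteins Cfp fell on that day (-0.53). Between the doses, 5 of 11 were higher at 50 than at 3 mg/kg over the dosing days, Tgfb3 (0.99), Ltbp1 (0.98), Tgfb2 (0.94), Ltbp3 (0.65) and Ltbp4 (0.49), with a list median of 0.24 against -0.01 for all genes, and 6.84% of genes called higher. Of the other lists, Spon2 (0.83), Sema5a (0.50), Fzd6 (0.49), Adamts1 (0.42), Cacna2d1 (0.27) and Thsd7a (0.22) were higher too. Mmp9 (-0.69), Spon1 (-0.58), Cd47 (-0.52), Calr (-0.36) and Sdc1 (-0.32) were lower. In all, 15% of genes were called in this dose comparison. After dosing on day 237, 6 of 11 were higher, with a list median of 1.11 against -0.01 for all genes and 7.04% of genes called higher, and Tgfb2 was the farthest (2.62). On that day 3 of 16 receptors and partners fell, Cd47 (-1.07), Mmp2 (-0.94) and the chaperone Calr (-0.41), with 6.16% of genes called lower. Of the other lists, Sema5a (1.23), Spon2 (0.93), Ryk (0.77), Fzd6 (0.65) and Fzd3 (0.36) were higher then and Cfp was lower (-0.76). On day 309, 4 of the 11 rose, Ltbp3 (1.28), Tgfb2 (1.23), Ltbp2 (0.99) and Ltbp4 (0.64), with 16.4% of genes called. Of the 16 receptors and partners 1 rose on that day, Lrp1 (0.81), and 3 fell, Cd47 (-0.79), Itga6 (-1.20) and Cd36 (-0.41). Spon2 (0.87) and Adamtsl4 (0.46) were also higher then, and Daam1 (-0.80) and Cfp (-0.70) were lower. On day 267 after 3 mg/kg Spon1 (1.27), Sema5a (1.21) and Itgb1 (0.72) were higher, with 431 of 11859 genes called. The marker values given above for these osteocyte groups apply here too, and their part was not tested.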

How the data were processed

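Rat expression arrays of laser-captured vertebral cells were used as deposited. The authors' deposited values are linear intensity after RMA (2.94 to 28282), so log2 was taken first, although the plan had assumed a log2 scale. The submitters' processing notes name affy 1.38.1 under R 3.0.1, RMA and Affymetrix Expression Console, in no stated order. The 3 cell types have different quantiles. Of 31042 probe sets 20826 list 1 gene, 436 several and 9780 none, and each of 14217 genes kept the probe set of the highest mean. Genes above the array's median in at least 5 arrays of a fit were tested: 11412 in osteoblasts, 11600 in lining cells and 11859 in osteocytes.

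All 20 groups of a cell type entered 1 fit in limma 3.58.1 (R 4.3.3), with p-values adjusted by Benjamini-Hochberg over all genes per contrast and a call at an adjusted p under 0.05. The cell types in vehicle were fitted with day, and the difference of responses in a fit of all arrays. The members, the 5 pathway lists and the 13 marker lists were chosen with earlier results of these data known. Named were all members, up to 5 most alike genes each and called list members. Nothing in the labels says how far arrays of a group come from separate captures beyond the animals, so p-values measure the spread between arrays. Alternatives were quantile normalization, the mean of probe sets, no filter, array weights, the signal range (90th minus 50th percentile) as a covariate, its 3 outlying arrays left out, the compared groups alone and each array left out. The fit was tested on simulated data. Thbs1 was not analysed here, nor was any probe set listing no gene or several. Promoters come from RefSeq (GRCr8).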

Additional observations from a re-analysis of the deposited data

Results flagged for a closer look

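Over the 3 genes there were 177 sets of a gene's values in a group of 4 or 5 arrays, and 9 of them held an array far from the others by Dixon's criterion, where chance gives about 1 in 20 (8.85). For Thbs2 these were lining cells at 50 mg/kg on day 8 (lowest 3.28, nearest 3.60), day 29 (highest 4.63, nearest 3.43) and day 85 (highest 3.89, nearest 3.33), and osteocytes at 3 mg/kg on day 183 (highest 4.14, nearest 3.24). For Thbs4 it was the osteoblast array from 3 mg/kg on day 197 (highest 7.95, nearest 5.95). For Cthrc1 they were osteoblasts at 50 mg/kg on day 29 (highest 9.63, nearest 9.15), osteocytes in vehicle on day 8 (highest 8.77, nearest 7.98), osteocytes at 50 mg/kg on day 8 (lowest 8.62, nearest 9.37) and osteocytes from 50 mg/kg on day 237 (lowest 4.37, nearest 5.45).

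The antibody response differed between days or cell types, by a test of the difference itself, in 10 cases. Between dosing days 6 tests were made in each cell type, and 1 passed in osteoblasts and 0 elsewhere. Between days after dosing 6 were made in each, and 1 passed in osteoblasts, 0 in lining cells and 5 in osteocytes. The contrasts after dosing, between days and between cell types, were added to the plan later. Most of these 10 calls ended in some alternative setting. In osteoblasts the Thbs4 response on day 85 exceeded that on day 8 by 1.96 (0.657% of all genes called). Its response on day 267 after 3 mg/kg exceeded that on day 197 by 2.91 (0.0613% called). In osteocytes the same difference of days was 1.87 for Cthrc1 and 1.52 for Thbs4 (10.9% called). After 50 mg/kg, day 309 exceeded day 237 in osteocytes by 2.42 for Cthrc1, 1.72 for Thbs4 and 0.74 for Thbs2 (2.81% called). On day 85 the osteoblast response exceeded the osteocyte response by 1.66 for Cthrc1 and 1.64 for Thbs4 (2.02% called). For Thbs2 on day 309 after 50 mg/kg, the osteoblast response minus the osteocyte response was -0.78 (27.3% called).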

How the results depend on the processing

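Using no filter changed none of 324 results. The mean of probe sets changed none either and could not, since each member has 1 probe set. Array weights changed the call of 17 (7 lost, 10 gained), which includes the osteoblast calls of day 85 with doses averaged. Counts of member calls that moved by over 1.5 times were as follows. With array weights, osteoblast calls went to 0 where they were 2 for the averaged doses, to 2 where they were 1 after dosing and between days after dosing, and to 0 where they were 1 for day 85 minus day 8. Osteocyte calls went to 1 where they were 0 for the averaged doses and for each dose, and to 0 where they were 1 in vehicle, lining cell calls to 1 where they were 0 for the averaged doses, and calls between cell types to 0 where they were 2 during dosing and to 2 where they were 1 after it. Without the 3 arrays of outlying signal range, osteoblast calls were 0 for day 85 minus day 8 and 2 between days after dosing, and calls between cell types during dosing 0. With only the compared groups fitted, lining cell calls were 1 for each dose (2 otherwise) and 0 between doses by day (1 otherwise), osteoblast calls between doses by day 4 (2 otherwise), and osteocyte calls 1 for averaged doses and 1 for each dose (0 otherwise). Quantile normalization gave 1 lining cell call for averaged doses, 1 osteoblast call for day 183 minus day 85, 1 osteocyte call for each dose, 2 osteocyte calls between days after dosing (5 otherwise) and 0 in vehicle. It reversed the Thbs2 differences between cell types, to -0.11 for osteoblast minus lining cell, -0.14 for osteoblast minus osteocyte and -0.028 for lining cell minus osteocyte. The signal range as covariate gave 1 lining cell call for averaged doses, 2 osteocyte calls between days after dosing and 0 in vehicle. Leaving out each array in turn gave 0 to 1 lining cell calls for averaged doses and between doses by day, 1 to 2 for each dose, 1 to 2 osteoblast calls between doses by day, 0 to 1 after dosing and for day 85 minus day 8, 1 to 3 between days after dosing, and in osteocytes 0 to 1 between doses by day, for each dose and in vehicle, and 3 to 5 between days after dosing. Of the osteocyte calls between days, Cthrc1 after 3 mg/kg ended after quantile normalization (limma adjusted p = 0.0720) and with the covariate (0.0563), Thbs4 after 3 mg/kg with both (0.121 and 0.182) and Thbs2 after 50 mg/kg with both (0.0648 and 0.0561). Leaving out 1 array ended that Thbs2 call in 16 of 97 cases, the Thbs4 call after 50 mg/kg in 8 and the Thbs4 call after 3 mg/kg in 3. The causes were not tested. No paired analysis was possible because the labels name no rat and the replicate numbers only follow the order of deposit. Signal over background limits Thbs2, which lies near the array medians, and 3 to 5 arrays per group limit every value.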
